A study of Mus musculus with 8 samples.

Results

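The second hour of the macrophage response to lipopolysaccharide (LPS) was described from the 4 of the 8 arrays of the series that the labels place at 1 h and at 2 h of LPS. These arrays were selected by their labels alone, with 1 array for each genotype and time. The groups were wild-type cells after 1 h, wild-type cells after 2 h, cells labelled Zc3h12a-/- after 1 h and cells labelled Zc3h12a-/- after 2 h. All 4 received LPS at 100 ng/ml, and all were peritoneal macrophages from mice that had been injected with thioglycollate, an irritant that draws cells into the peritoneal cavity. The product of Zc3h12a, Regnase-1, is an RNase that cuts inflammatory mRNAs. The 0 h and 4 h arrays of both genotypes entered the fit to supply its estimate of spread. No group had a replicate, and the labels do not say how many mice contributed to a sample.

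LPS is a component of the outer membrane of Gram-negative bacteria and is sensed through TLR4. Signals through the adaptor MyD88 start the first wave of transcription, which includes immediate early genes such as Fos and Egr1 and the first targets of NF-kB. Signals through the adaptor TRIF lead to interferon-beta, which the cells secrete. Interferon-beta then acts on the same cells and their neighbours through a receptor, JAK kinases and transcription factors that include IRF9, and this turns on the interferon-stimulated genes as a later wave. The immediate early mRNAs decay quickly, partly through proteins such as tristetraprolin (Zfp36) that bind AU-rich elements.

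Values are log2 intensities of 1 probe set per gene, and a difference of 1 is a doubling of intensity. Of 18193 genes with a named probe set, 12540 were tested. A gene "rose" or "fell" when its 2 h minus 1 h difference passed an adjusted p threshold of 0.05 in limma (Benjamini-Hochberg adjustment over all 12540 genes, 3 residual degrees of freedom), and standard errors (SE) are limma's. By that rule 967 genes rose, 7.71% of those tested, and 1827 fell, 14.6%. These shares stand beside the count of each gene list below. All 2794 moved in 1 direction in both genotypes. The fit counts disagreement between the genotypes as spread, so a gene with opposite changes could hardly pass, and this count does not measure agreement. Leaving out the wild-type 1 h array gave 1721 genes, the wild-type 2 h array 1602, the knockout 1 h array 1305 and the knockout 2 h array 1201. The submitters' normalization makes the arrays' distributions alike, and the share of risers among called genes, 34.6%, depends on it. With each array centred on the median level of 9 housekeeping genes, 1887 rose and 1065 fell (63.9% higher), and the median over all genes moved from -0.06 to 0.14. A stricter class also had at least a 2-fold change of 1 sign in both genotypes. It held 294 genes that rose (2.34% of those tested) and 433 that fell (3.45%), and is called the 2-fold class below. Of these, 83 rose and 54 fell at least 4-fold in both genotypes, and 27 rose and 7 fell at least 8-fold. No gene moved at least 2-fold in opposite directions in the genotypes.

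The 4 arrays had similar medians, but both 2 h arrays had a higher background and fewer genes above it than the 1 h arrays. Their pairwise correlations lay between 0.954 and 0.984, and the median of a column between 3.15 and 3.21. The background, the brightest reading among 27 bacterial spike-in probe sets, was 3.13 and 3.10 at 1 h and 3.26 and 3.21 at 2 h in wild-type and knockout arrays. Of the tested genes 88.2% and 90.7% lay above it at 1 h and 79.9% and 84.0% at 2 h. For Gapdh, 3' control probes exceeded 5' ones by 2.99 and 3.16 at 1 h and 2 h in the wild type and 2.95 and 3.04 in the knockout. For Actb the gaps were 2.35 and 2.43 and 2.61 and 2.52, so signal was stronger toward the 3' end on each array. The brighter Zc3h12a probe set read 8.02 and 8.87 at 1 h and 2 h in the wild type and 7.70 and 8.75 in the arrays labelled knockout. The knockout array read lower at both times. The files do not say whether it lies in the deleted part, so it checks nothing about the labels.

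The macrophage label was checked against marker lists. All 17 general macrophage markers lay above background on at least 1 of the 4 arrays, with a summed log2 level of 16.38 and 16.34 at 1 h and 2 h in the wild type and of 16.39 and 16.28 in the knockout. Of 12 neutrophil markers, 3 lay at background on all 4 arrays, and Mpo did not exceed 3.11. S100a8 and S100a9 rose, by 0.72 and 0.62, and the summed neutrophil level went from 10.74 to 11.40 in the wild type and from 11.12 to 11.67 in the knockout. That sum followed S100a8, at 10.50 and 11.25 in the wild type and 10.70 and 11.39 in the knockout, and not the whole list. Of the 8 neutrophil markers tested 6 did not pass, among them Csf3r (-0.65), and the list median was 0.01. Of the 14 stromal markers, 10 were tested and 5 fell, all collagen or matrix genes or Pdgfra, with a list median of -0.41. Their summed level went from 11.002 to 10.641 in the wild type and from 9.65 to 9.04 in the knockout, and Msln did not exceed 2.76. With each array centred on the housekeeping list 1 of the 10 fell, and 0 to 3 fell when any of the 8 arrays was left out. The 13 markers of resident peritoneal macrophages summed to 12.20 and 12.28 at 1 h and 2 h in the wild type and to 14.15 and 14.12 in the knockout. The 11 lymphocyte markers summed to 7.301 and 7.303 and to 9.69 and 9.09, with Ighm at 5.46 and 5.58 and at 9.45 and 8.72. Both sums were thus higher in the knockout arrays at both times. The lymphocyte sum followed Ighm and not the whole list. The median of the 7 lymphocyte markers tested was 3.38 and 3.23 at 1 h and 2 h in the wild type and 3.28 and 3.32 in the knockout. The part of these other cells in the results was not tested, and fewer cells of a type and less RNA per cell cannot be told apart in bulk RNA.

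Upstream sequences were searched for elements that these waves of transcription are known to use. The RefSeq promoter table (GRCm38.p6) held windows of 300 bases, from 250 before to 50 after a start site, for 10106 of the 12540 tested genes. It covered 221 of the 294 genes of the 2-fold class that rose and 338 of the 433 that fell. Of the 30 genes with the largest changes by the rule for named genes, 20 had their windows examined singly. The rest were not examined in this way, whether or not the table held a window for them. In 9 of the 20 genes the upstream part held a match to a motif searched. The other 11 had none, among them Nr4a1, Jun and Cmpk2. Sec14l1, which fell, held an interferon response element, and Ifit2 and Slfn1, which rose, held an NF-kB site and no such element. Of the 9 genes 5 are shown, chosen as examples of 1 motif each or of a pair. Each is the 250 bases before the start site, 5' to 3' on the gene's strand, with matches on either strand in capitals. Ifit3 (chr19:34583279-34583528, plus strand) holds 2 interferon response elements. Ifit1bl1 (chr19:34601969-34602218, minus strand) holds 1 interferon response element (TTTCATTTTC) and 2 TATA boxes. Cxcl3 (chr5:90785851-90786100, plus strand) holds an NF-kB site followed by a TATA box. Fos (chr12:85473640-85473889, plus strand) holds an NF-kB site and a TATA box, and Btg2 (chr1:134079156-134079405, minus strand) holds a cAMP response element.
Ifit3: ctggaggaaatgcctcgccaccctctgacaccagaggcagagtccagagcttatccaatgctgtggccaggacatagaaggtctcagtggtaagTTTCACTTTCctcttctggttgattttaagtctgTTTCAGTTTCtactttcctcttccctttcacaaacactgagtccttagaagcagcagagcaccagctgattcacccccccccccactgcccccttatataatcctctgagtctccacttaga
Ifit1bl1: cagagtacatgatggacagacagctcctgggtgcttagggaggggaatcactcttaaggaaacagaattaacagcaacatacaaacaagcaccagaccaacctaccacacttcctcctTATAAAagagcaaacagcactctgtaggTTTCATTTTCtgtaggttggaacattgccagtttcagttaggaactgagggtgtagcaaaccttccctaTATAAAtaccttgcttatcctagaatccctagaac
Cxcl3: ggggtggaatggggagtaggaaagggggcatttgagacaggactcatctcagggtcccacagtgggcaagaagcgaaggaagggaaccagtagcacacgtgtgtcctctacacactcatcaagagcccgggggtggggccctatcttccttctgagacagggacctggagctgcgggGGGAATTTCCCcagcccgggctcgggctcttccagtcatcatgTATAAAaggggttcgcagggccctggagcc
Fos: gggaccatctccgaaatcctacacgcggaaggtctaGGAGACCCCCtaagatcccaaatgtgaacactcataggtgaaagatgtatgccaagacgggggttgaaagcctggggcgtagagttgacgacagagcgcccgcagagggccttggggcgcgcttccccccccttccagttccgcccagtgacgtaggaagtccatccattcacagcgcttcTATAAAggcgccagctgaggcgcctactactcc
Btg2: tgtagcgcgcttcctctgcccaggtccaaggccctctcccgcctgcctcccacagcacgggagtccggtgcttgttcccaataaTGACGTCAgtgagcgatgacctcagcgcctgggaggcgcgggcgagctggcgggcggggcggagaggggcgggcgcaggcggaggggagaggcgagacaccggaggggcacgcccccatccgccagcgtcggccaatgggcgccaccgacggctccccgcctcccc

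The motifs searched on both strands were the interferon response element (GAAANNGAAA), the NF-kB site, the CArG box, the cAMP response element (TGACGTCA) and the TATA box (TATAAA). A window counted once per motif, and where matches overlapped they were shown as 1 run of capitals, as at the NF-kB site of Cxcl3, which matched on both strands. The interferon response element was in a window of 34 of the 221 genes that rose (15.4%), 12 of the 338 that fell (3.55%) and 387 of the 10106 tested genes with a window (3.83%). It was in 15 of the 34 interferon-stimulated genes of the list used below that had a window (44.1%), and in 3.44% of all 32851 windows of the table. The NF-kB site was in 16.3% of the genes that rose, 15.4% of those that fell, 12.2% of tested genes and 8.46% of all windows. The cAMP response element was in 1.36%, 3.85%, 3.35% and 1.79% of the same sets, and the CArG box in 0.905%, 1.48%, 1.59% and 1.63%. TATAAA was in 14.03%, 9.76%, 10.004% and 13.6%. These are matches of letters in a short window and not measured binding.

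**Figure D1:**
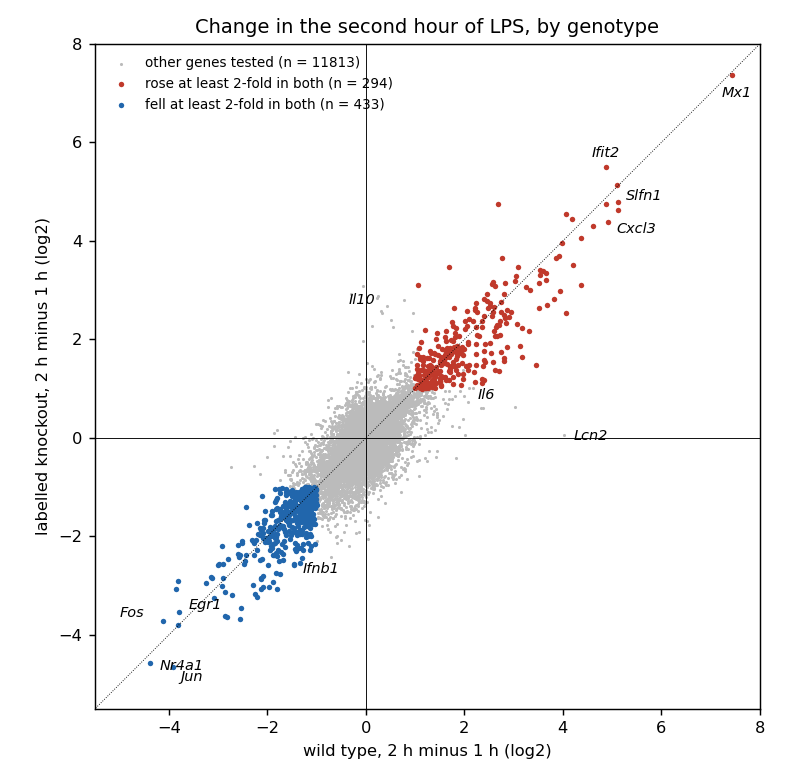
Difference between 2 h and 1 h of LPS (log2) in wild-type arrays on the x axis and in arrays labelled knockout on the y axis, 1 point for each of the 12540 genes tested. Red points are the 294 genes that rose and blue points the 433 that fell at least 2-fold in both genotypes past the threshold, and the dotted line marks equal change. Mx1 lies at 7.45 and 7.36, and Nr4a1 at -4.38 and -4.57, while Lcn2 lies at 4.03 and 0.06.

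A change of 1 sign in both genotypes was a condition of the 2-fold class, so its medians are a description. The genes that rose had a median difference of 1.75 in the wild type and 1.65 in the knockout, and those that fell of -1.39 and -1.56. Over all tested genes the medians were -0.04 and -0.10. Across genes, which are not independent replicates and which share their arrays, the change in the wild type and the change in the knockout correlated with a Pearson coefficient of 0.793 and a Spearman coefficient of 0.646. The plot of change by genotype shows the points along the line of equal change. The line at 2-fold cut through a continuous range. Among genes past the threshold, Nop58 (1.00 in the wild type and 1.22 in the knockout) lay just inside it and Trmt61b (0.999 and 1.61) just outside it, and Sh3rf1 (-1.16 and -1.001) lay just inside and H6pd (-0.998 and -1.24) just outside.

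The mRNA of interferon-beta was lower at the end of the second hour, while mRNAs of interferon-stimulated genes were higher. The secreted protein was not measured. Ifnb1 read 6.34 at 1 h and 4.87 at 2 h in the wild type and 6.79 and 4.24 in the knockout. Both 2 h arrays were below both 1 h arrays. It fell by 2.01 on the log2 scale (SE 0.24, adjusted p = 0.00316, limma), and at 0 h and at 4 h it read between 2.82 and 2.92 in both genotypes. The list of interferon ligands, receptor chains, kinases and factors had 12 tested genes, of which 4 rose and 2 fell, with a median of 0.27 against -0.06 for all genes tested.

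Among the signalling genes, Irf7, Irf9, Stat2 and Ifnar1 rose. Irf7, the factor that amplifies interferon production, read 4.84 at 1 h and 6.78 at 2 h in the wild type and 5.05 and 6.89 in the knockout. It rose by 1.89 (SE 0.12, adjusted p = 0.000472, limma). Irf9, which encodes a DNA-binding factor of interferon signalling, read 6.54 and 8.39 in the wild type and 6.35 and 8.22 in the knockout, a rise of 1.86. At 0 h Irf7 read 4.95 and 4.99 and Irf9 read 6.89 and 7.03, so neither had moved upward clearly by 1 h. Stat2 rose by 1.54 (SE 0.20), from 3.61 to 4.74 in the wild type and from 2.89 to 4.85 in the knockout, where the 1 h array was below background. The receptor chain Ifnar1 rose by 0.69 and Irf3, which acts upstream of interferon-beta, fell by 0.60. Irf1 (0.46, adjusted p = 0.207), Irf8 (-0.12) and Jak1 (0.08) did not pass.

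The interferon-stimulated antiviral genes rose almost without exception. Of 45 tested, 44 rose and none fell, 41 of them in the 2-fold class, with a median of 2.39 in the wild type and 2.09 in the knockout. Bst2, which encodes tetherin, was the gene that did not pass (0.35, adjusted p = 0.363). The count lay between 41 and 43 when any of the 8 arrays was left out, and was 27 when the test asked for more than 2-fold. The list was drawn up with earlier results of these data known, so its direction is a description.

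Mx1 had the largest rise of all genes tested. This gene, which encodes a GTPase that blocks influenza virus, read 4.38 at 1 h and 11.82 at 2 h in the wild type and 4.22 and 11.59 in the knockout. Both 1 h arrays were below the 0 h arrays, which read 5.09 and 4.53. The rise of 7.405 (SE 0.15, adjusted p = 2.27e-05, limma) is a 169-fold change of intensity. By 4 h it read 12.93 and 12.86. Its paralog Mx2 went from 3.21 to 7.28 and from 2.87 to 7.42, a rise of 4.31, with the knockout 1 h array below background.

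The IFIT genes, whose proteins bind foreign RNA, differed in how much of their rise fell in this hour. Ifit2 read 6.70 and 11.58 in the wild type and 5.73 and 11.22 in the knockout, a rise of 5.19 (SE 0.22, adjusted p = 0.000172, limma). Ifit3 rose by 4.45 and Ifit1bl1 by 4.31, and both went on rising to 4 h, where Ifit1bl1 read 11.05 and 11.60. Ifit1 had already gone from 6.38 to 11.13 in the wild type and from 6.15 to 11.52 in the knockout by 1 h, and rose by a further 1.72 in the second hour. Rsad2, which encodes viperin, went from 12.20 to 13.33 and from 12.14 to 13.53, a rise of 1.26 after most of its increase had come by 1 h. Ifih1, which encodes the RNA sensor MDA5, rose by 1.14 in the same way from 11.55 and 11.60. Intensities near the top of the scale may be compressed, which was not tested.

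Other antiviral genes rose from a range of levels. Cmpk2, a mitochondrial nucleotide kinase that neighbours Rsad2, went from 5.53 to 10.66 in the wild type and from 6.02 to 10.80 in the knockout, a rise of 4.96 (SE 0.17). Slfn1, of the Schlafen family, went from 5.35 to 10.45 and from 4.71 to 9.84, a rise of 5.12. Usp18, which removes ISG15 and dampens interferon receptor signalling, rose by 3.85. The RNA sensor gene Ddx58, which encodes RIG-I, rose by 2.61 and its relative Dhx58 by 2.00. Of the 2'-5' oligoadenylate synthetase genes, which activate RNase L, Oas1a rose by 2.02, Oas2 by 2.17 and Oas3 by 1.53, and the related Oasl1 and Oasl2 rose by 2.48 and 2.55. The PARP genes Parp14, Parp9 and Parp12 rose by 2.63, 2.28 and 1.39. Daxx rose by 3.28, Trim21 by 2.86 and Zbp1, a sensor of nucleic acids in Z form, by 2.37. The smallest rises that passed were those of Adar (0.61, adjusted p = 0.0349), Ddx60 (0.81) and Sp100 (0.92). Ddx60 was at background on both 1 h arrays, so its rise is at least 0.57.

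**Figure D2:**
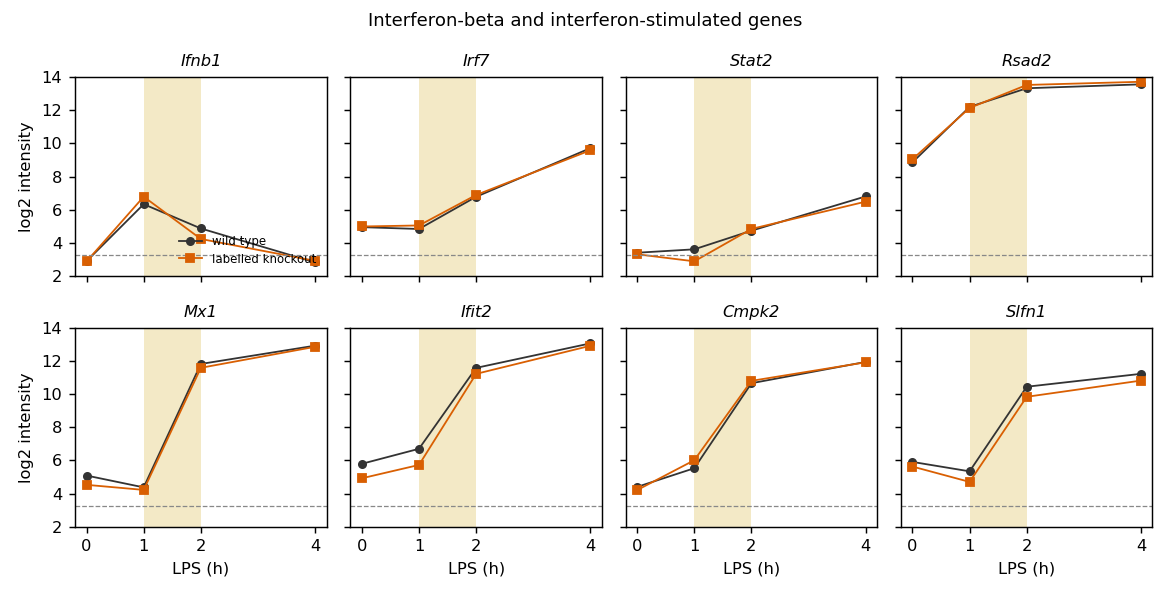
Log2 intensity on the y axis against hours of LPS on the x axis for Ifnb1 and 7 interferon-related genes, 1 array per point, wild type in black circles and arrays labelled knockout in orange squares. The shaded band is the second hour and the dashed line the highest array background, 3.26. Ifnb1 is highest at 1 h, Mx1 climbs from 4.38 and 4.22 to 11.82 and 11.59 within the band, and Rsad2 is already at 12.20 and 12.14 at its start.

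The other intervals are set beside the second hour for the interferon-stimulated genes. Of the 45 genes, 6 were at least 2-fold higher at 1 h than at 0 h in both genotypes, 41 were so at 2 h against 1 h, and 31 at 4 h against 2 h. All genes tested gave 2.201%, 2.40% and 3.51% in these intervals. Neighbouring intervals share arrays, so the counts are values side by side. The 4 h and 0 h arrays took no part in the second-hour difference, and between them all 45 were at least 2-fold higher in both genotypes.

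The guanylate-binding proteins and immunity-related GTPases, which attack the vacuoles of intracellular pathogens, rose as well. Of 9 tested genes 8 rose, 6 in the 2-fold class, with a median of 1.97 in the wild type and 1.19 in the knockout. Irgm2 went from 4.68 to 8.33 in the wild type and from 5.59 to 8.80 in the knockout, a rise of 3.43 (SE 0.15, adjusted p = 0.000185, limma). Irgm1 rose by 3.32, Iigp1 by 3.30 and Igtp by 2.75. The difference in Iigp1 was 4.06 in wild type, from 5.03, and 2.54 in the knockout, from 8.17, and the genotype difference of -1.52 (SE 0.82) did not pass (adjusted p = 0.748). Gbp2, Gbp3, Gbp6 and Gbp7 rose by 1.32 to 1.58, and Gbp8 had -0.93 (adjusted p = 0.154). The estimate was smaller in the knockout for each of the 8 genes that rose, and 5 of the list rose without the wild-type 1 h or the wild-type 2 h array.

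Of 14 genes of class I antigen presentation 4 rose, beside 7.71% of all genes tested, with a median of 0.27. Tap1, a subunit of the peptide transporter, went from 7.08 to 9.10 in the wild type and from 7.27 to 8.72 in the knockout, a rise of 1.74. The immunoproteasome subunit genes Psmb9 and Psmb8 rose by 0.97 and 0.60, and Tapbp by 0.43. Of the class I list 7 rose with centring on the housekeeping list, 1 without either wild-type array and 2 without the knockout 2 h array. Of 13 genes for class II and for costimulation, 5 rose and 2 fell, beside 7.71% and 14.6% of all genes tested. The count that fell is near that general share and is not read as a trait of the list. Cd86, a ligand of CD28, went from 5.12 to 6.98 and from 6.34 to 7.83, a rise of 1.68 (SE 0.17, adjusted p = 0.00181, limma), and Cd80 and Cd40 rose by 1.37 and 1.36. Cd83 fell by 0.64 and H2-DMa by 0.52. In this list 3 rose without the wild-type 2 h or the knockout 1 h array, and none fell without either of these, without the knockout 2 h array or with centring on the housekeeping list.

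Chemokines divided into those known to be induced through interferon and the others. Of the 8 interferon-induced chemokine genes tested, 6 rose, beside 7.71% of all genes tested, with a median of 1.55. Cxcl10, a ligand of CXCR3, went from 10.81 to 12.45 in the wild type and from 11.01 to 12.70 in the knockout, a rise of 1.67 (SE 0.14, adjusted p = 0.000884, limma). Cxcl11, a second ligand of that receptor, went from 3.16 to 5.93 and from 3.32 to 6.97, a rise of 3.21, and Cxcl9, the remaining one, rose by 2.46. Ccl7 rose by 1.43, Ccl12 by 0.96 and Ccl2 by 0.51. Ccl5 had 1.68 with an SE of 0.51 and did not pass (adjusted p = 0.0616). Without either wild-type array 3 of the 8 rose.

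Of the 15 other chemokine genes tested, 3 rose and none fell, with a median of 0.17. Over all genes tested 7.71% rose and 14.6% fell. Cxcl3, a neutrophil chemoattractant, stood apart from the rest of the list. It went from 4.99 to 9.90 in the wild type and from 5.16 to 9.55 in the knockout, a rise of 4.65 (SE 0.26, adjusted p = 0.000318, limma). Its relatives Cxcl1 and Cxcl2 were already high at 1 h and had differences of 0.05 and -0.11. Cxcl16 rose by 0.64 and Ccl4 by 0.49, and neither of these calls held with the 1 h and 2 h arrays alone. Cxcl3 alone passed without the wild-type 1 h, the wild-type 2 h or the knockout 1 h array, and 5 of the list rose with centring on the housekeeping list. Ccl3 (0.26) and Ccl9 (0.35) did not pass.

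Some cytokine genes rose in the second hour. Of 19 tested 7 rose, all in the 2-fold class, none fell, and the median was 0.62. Over all genes tested 7.71% rose and 14.6% fell. Apart from the test, 12 of the 19 were at least 2-fold higher in both genotypes in the first hour and 8 in the second. With centring on the housekeeping list 12 rose. Il15, a growth factor for natural killer and memory T cells, went from 4.96 to 8.55 in the wild type and from 4.78 to 8.17 in the knockout, a rise of 3.49 (SE 0.12, adjusted p = 0.000123, limma). At 0 h it read 5.39 and 4.91. Il12b, the p40 subunit of interleukins 12 and 23, went from 4.35 to 8.30 and from 4.00 to 6.98, a rise of 3.47, and Il12a, the p35 subunit, rose by 2.21 from 2.85, which is below background, and 3.21. Csf2, which encodes GM-CSF, rose by 2.68, Lif by 2.51, Il33 by 1.37 and Csf1 by 1.32. In the first hour Csf2 had gone from 3.28 to 6.19 in the wild type and from 3.09 to 5.92 in the knockout. Lif had gone from 2.94 to 5.88 and from 3.27 to 6.92. Il33 was at background on both 1 h arrays, so its rise is at least 1.28.

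Other cytokine genes did not pass in the second hour. Tnf read 12.56 and 12.51 at 1 h and 2 h in the wild type and 12.62 and 12.30 in the knockout, a difference of -0.19 (SE 0.13, adjusted p = 0.367, limma). With centring on the housekeeping list that difference was 0.017. Il1b had 0.37 (adjusted p = 0.128) from 12.96 and 12.80, and Il1a had 0.23. Il23a had 0.62 (adjusted p = 0.0726). A p that misses the threshold does not show that these genes were unchanged.

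**Figure D3:**
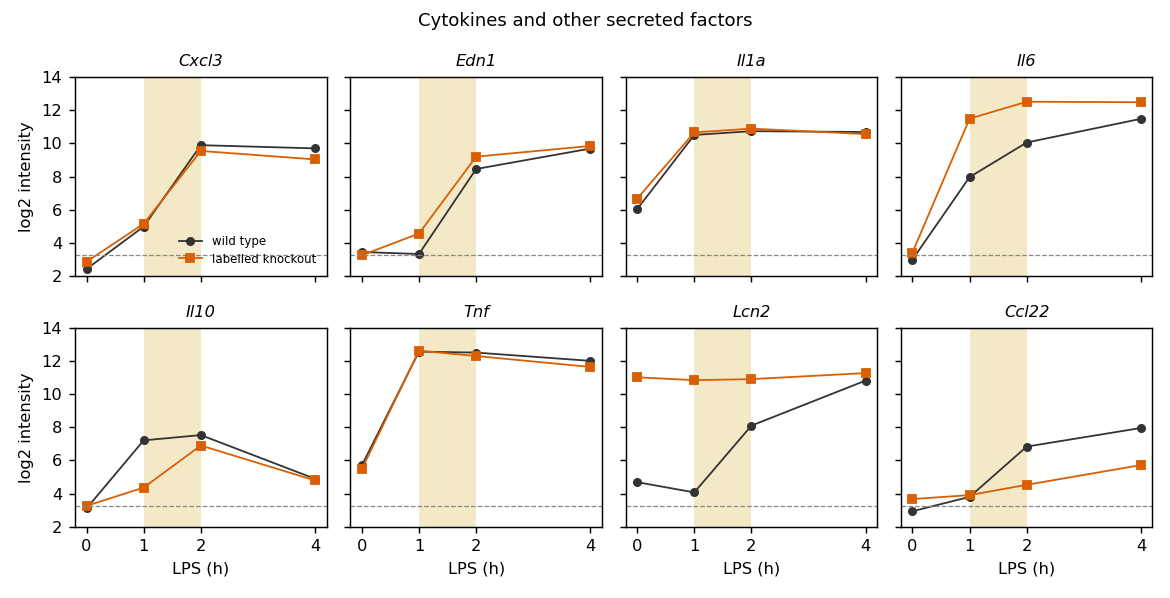
Log2 intensity on the y axis against hours of LPS on the x axis for 8 genes of secreted proteins, 1 array per point, wild type in black circles and arrays labelled knockout in orange squares, with the second hour shaded and the highest array background dashed. Cxcl3 and Edn1 climb within the band in both genotypes and Tnf is level from 1 h to 2 h. Il6, Il10, Lcn2 and Ccl22 differ between the genotypes at 1 h or 2 h.

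Effector and secreted defence genes gave 6 that rose of 21 tested, with none that fell and a median of 0.42. Over all genes tested 7.71% rose and 14.6% fell. Edn1, which encodes the vasoconstrictor endothelin-1, went from 3.33 to 8.46 in the wild type and from 4.57 to 9.20 in the knockout, a rise of 4.88 (SE 0.33, adjusted p = 0.000503, limma). The cystine transporter gene Slc7a11 rose by 2.63, Inhba, which encodes the activin A subunit, by 2.52, and the arginine transporter gene Slc7a2 by 2.41. Ptges, the inducible synthase of prostaglandin E2, rose by 1.32. Nos2, the inducible nitric oxide synthase, was at or below background on all 4 arrays and read 6.32 and 7.63 at 4 h. Without the knockout 2 h array 3 of these rose.

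Of 18 tested genes of NF-kB subunits, inhibitors and feedback proteins 5 rose and 1 fell, with a median of 0.15. Over all genes tested 7.71% rose and 14.6% fell. An unadjusted p below 0.05 in limma was reached by 10 of the 18. Nfkb2, which encodes the p100 precursor, went from 8.18 to 9.78 in the wild type and from 8.03 to 9.55 in the knockout, a rise of 1.56 (SE 0.11, adjusted p = 0.000533, limma). Traf1 rose by 1.13, Tnip1 by 0.98, Icam1 by 0.67 and Nfkbie by 0.42. Nfkbia, which encodes the inhibitor IkB-alpha, read 13.32 and 13.21 in the wild type and 13.34 and 13.18 in the knockout (adjusted p = 0.441). That difference of -0.13 was 0.075 with centring on the housekeeping list. Nfkbid, which encodes the nuclear protein IkB-NS, was the member that fell, by 1.34. Of this list 3 rose without either knockout array. In the first hour 16 of the 18 had been at least 2-fold higher in both genotypes, against 2 in the second.

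Most of the immediate early genes moved the other way. Of 30 tested 19 fell and 2 rose, beside 14.6% and 7.71% of all genes tested. The list median was -1.12 in the wild type and -0.83 in the knockout, and 14 of the 19 were in the 2-fold class. Between 15 and 18 fell when any array was left out, 17 with centring on the housekeeping list, and 7 when the test asked for more than 2-fold. In the first hour 19 of the 30 were at least 2-fold higher in both genotypes. These 2 intervals share the 1 h arrays.

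Nr4a1, an orphan nuclear receptor gene, had the largest fall of all genes tested. It read 7.96 at 1 h and 3.58 at 2 h in the wild type and 8.46 and 3.89 in the knockout, and its 0 h values were 3.19 and 3.42. It fell by 4.47 on the log2 scale (SE 0.15, adjusted p = 0.000123, limma). Its family did not move together. Nr4a3 went from 5.54 to 8.59 in the wild type and from 6.37 to 9.66 in the knockout, a rise of 3.17 (SE 0.21, adjusted p = 0.000496, limma). Nr4a2 fell by 0.83, from 4.26 to 3.13 and from 4.03 to 3.49, with the wild-type 2 h array below background.

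The AP-1 genes differed by subunit. Fos went from 11.53 to 7.41 in the wild type and from 11.25 to 7.54 in the knockout, a fall of 3.91 (SE 0.18, adjusted p = 0.000202, limma), and Jun from 10.31 to 6.40 and from 10.04 to 5.39, a fall of 4.28. Both were below their 0 h values at 2 h, which were 8.82 and 9.03 for Fos and 10.05 and 10.07 for Jun. Jun at 1 h stood close to its 0 h level in both genotypes. Junb fell by 1.58. Jund (-0.06), Fosl2 (-0.52) and Atf3 (-0.46, adjusted p = 0.160) did not pass.

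The EGR and MYC genes fell as well. Egr1, a zinc finger factor, went from 12.45 to 8.66 in the wild type and from 12.72 to 9.18 in the knockout, a fall of 3.67 (SE 0.29, adjusted p = 0.000796, limma). Egr3 fell by 2.46 and Egr2 by 1.11. Myc went from 7.77 to 5.22 and from 8.06 to 4.38, a fall of 3.11. Btg2, an antiproliferative gene whose upstream sequence is shown above, went from 8.40 to 5.54 and from 9.06 to 5.94, a fall of 2.99. Ier2 fell by 2.21, Ier3 by 1.41 and Csrnp1 by 1.41, and the Kruppel-like factor genes Klf2, Klf4 and Klf6 by 1.54, 1.19 and 0.69, with Klf2 below background on the knockout 2 h array. Klf7 rose by 1.29.

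**Figure D4:**
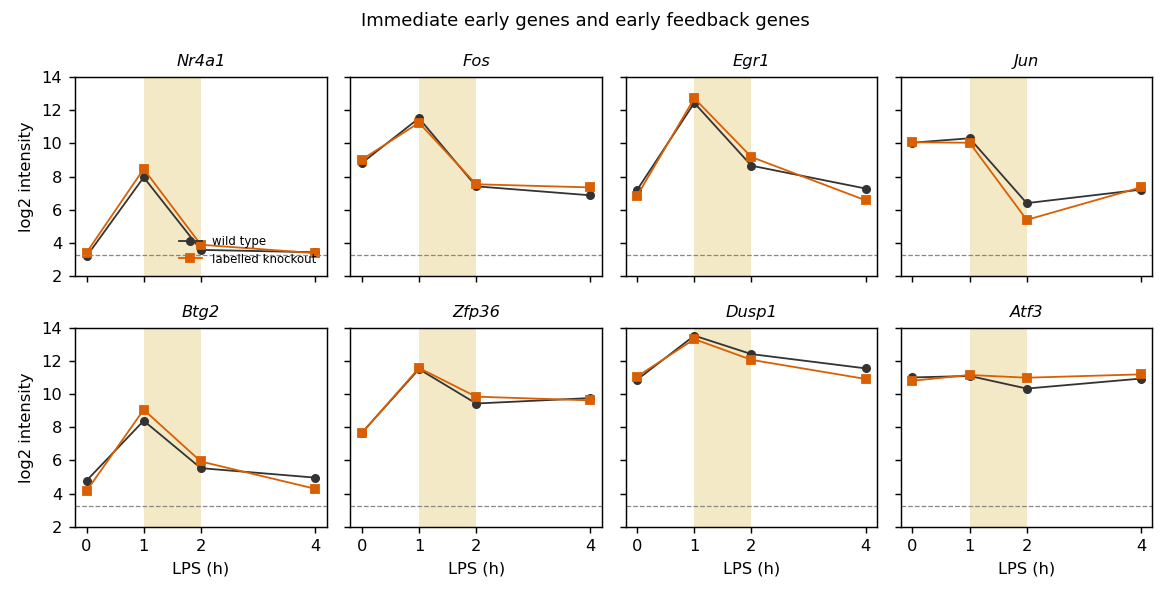
Log2 intensity on the y axis against hours of LPS on the x axis for 8 immediate early and feedback genes, 1 array per point, wild type in black circles and arrays labelled knockout in orange squares, with the second hour shaded and the highest array background dashed. Nr4a1, Fos and Egr1 are highest at 1 h and lower at 2 h in both genotypes. Jun falls from 10.31 and 10.04 to 6.40 and 5.39, and Atf3 stays between 10.34 and 11.16 across the band.

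Some early feedback genes also fell. Of 13 MAP kinase phosphatase and sprouty-type genes 6 fell and 2 rose, with a median of -0.73. Over all genes tested 14.6% fell and 7.71% rose. Dusp1, the main phosphatase of p38 and JNK in LPS-treated macrophages, went from 13.53 to 12.42 in the wild type and from 13.32 to 12.07 in the knockout, a fall of 1.18 (SE 0.20, adjusted p = 0.00879, limma). Dusp5 fell by 1.75, Spry2 by 1.12 and Dusp2 by 1.09, while Spred1 rose by 1.47 and Dusp16 by 0.53. Of this list 3 fell without the wild-type 2 h or the knockout 1 h array and 2 without the knockout 2 h array. Of 14 mRNA decay genes 6 fell and 1 rose, beside the same shares over all genes. Zfp36, which encodes tristetraprolin, went from 11.51 to 9.44 and from 11.58 to 9.85, a fall of 1.90 (SE 0.15, adjusted p = 0.000796, limma). Its relatives Zfp36l2 and Zfp36l1 fell by 1.40 and 1.04, and Zc3h12d, a relative of Zc3h12a, by 1.52. Zc3h12a was the member that rose, by 0.95 (SE 0.22, adjusted p = 0.0279, limma), and that call was lost without either 2 h array, without the knockout 1 h array and without either 4 h array.

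The counts in this paragraph stand beside 7.71% of all tested genes that rose and 14.6% that fell. Among SOCS genes, whose proteins restrain cytokine receptors, 4 of 7 rose. Cish rose by 1.92, Socs7 by 1.08, Socs2 by 0.73 and Socs5 by 0.50, and 1 of the list rose without the wild-type 2 h array and 2 without either knockout array. Toll-like receptor and LPS signalling genes gave 6 that rose and 2 that fell of 23. Tlr2, the receptor of bacterial lipopeptides, went from 11.004 to 12.042 in the wild type and from 11.12 to 12.10 in the knockout, a rise of 1.01 (SE 0.15, adjusted p = 0.00663, limma). Tlr4, the receptor of LPS itself, went from 8.54 to 7.26 and from 8.83 to 7.79, a fall of 1.16. Irak3, which encodes an inhibitory kinase-like protein, rose by 1.08, Tirap by 0.92, Tlr7 by 0.86 and Myd88 by 0.63, and Tlr13 fell by 1.36. Of this list 3 rose without the wild-type 1 h or the knockout 2 h array and 2 without the wild-type 2 h array. Of 14 chemoattractant receptor genes 3 rose and 3 fell, among them Fpr2 (a rise of 1.53), Cxcr4 (a fall of 1.97) and Ccr2 (a fall of 1.09). Of these 14 genes 1 rose without the wild-type 2 h array, and 1 fell without it or without either knockout array.

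Of 21 transcription factors that mark macrophages and their state 8 fell and 1 rose, with a median of -0.28. Over all genes tested 14.6% fell and 7.71% rose. Hhex went from 6.38 to 4.50 in the wild type and from 6.55 to 3.63 in the knockout, a fall of 2.40 (SE 0.24, adjusted p = 0.00165, limma), and its 4 h values were 8.089 and 8.0005. Mef2c fell by 2.06, Cebpa by 1.65, Mef2d by 1.17, Bcl6 by 0.80 and Maf by 0.73. Id3, an inhibitor of basic helix-loop-helix factors, fell by 2.87, but with an SE of 0.53, and its call was lost without each of the 4 arrays of 1 h and 2 h. Of this list 5 fell without the wild-type 1 h or the knockout 2 h array, 3 without the wild-type 2 h array and 4 without the knockout 1 h array.

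The share of all tested genes that fell, 14.6%, stands beside the counts of clock, survival, sterol and glycolysis genes. Of 15 circadian clock genes 4 fell and none rose. Dbp, a clock-controlled factor, went from 6.72 to 3.60 in the wild type and from 5.35 to 2.50 in the knockout, a fall of 2.98 (SE 0.21, adjusted p = 0.000544, limma), with the knockout 2 h array below background. Per3, Nr1d2 and Tef fell by 1.42, 1.19 and 0.80. Of 12 genes of the BCL2 family and of apoptosis inhibitors 5 fell. Pmaip1, which encodes the pro-apoptotic protein NOXA, fell by 2.00, the pro-apoptotic Bcl2l11 by 1.21 and Bad by 0.53, and the anti-apoptotic Bcl2 and Mcl1 by 1.18 and 0.53, so members of opposite function moved the same way. Of this list 3 fell without the wild-type 1 h or the knockout 1 h array or with centring on the housekeeping list, and 2 without the knockout 2 h array. Another list held 12 tested genes, targets of the liver X receptor (LXR) and cholesterol efflux genes. In it Ch25h, which makes 25-hydroxycholesterol, rose by 3.19, and Abcg1 and Scd2 fell by 1.54 and 1.30. Of 13 sterol synthesis genes Mvd, Lss and Dhcr7 fell, by 1.30, 1.26 and 0.88, and 1 fell without the knockout 1 h array and 0 without the knockout 2 h array. Of 17 glycolysis and hypoxia genes 3 rose and 3 fell, with Hk2 at 1.14, Hif1a at 0.74 and Vegfa at -2.48. Of these 1 rose without the wild-type 1 h, the wild-type 2 h or the knockout 1 h array, and 1 fell without the last of them.

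Lists not tied to LPS were counted for comparison. None of 9 housekeeping genes and none of 41 ribosomal protein genes passed, with medians of -0.01 and -0.03. At an unadjusted p under 0.05 in limma, 1 housekeeping gene and 1 ribosomal protein gene were lower. Of 215 zinc finger genes named Zfp and a 3-digit number 23 rose and 19 fell, beside 7.71% and 14.6% of all genes tested, and of 44 genes whose symbol starts with Nduf 1 rose and 3 fell. Without 1 of the 4 arrays of 1 h and 2 h, 9 to 11 of the zinc finger genes rose, 8 to 14 of them fell and 0 to 4 of the Nduf genes fell. The plot of change by gene list sets these beside the lists above.

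Outside the lists, the rule for named genes took the 15 largest rises and the 15 largest falls. U90926, an RNA of unknown function, went from 5.48 to 10.37 in the wild type and from 4.06 to 8.81 in the knockout, a rise of 4.81 (SE 0.49, adjusted p = 0.00176, limma). Ccnd2, which encodes cyclin D2, went from 3.70 to 8.08 and from 3.72 to 7.79, a rise of 4.22 (SE 0.12), and read 10.50 and 10.46 at 4 h. Vcan, which encodes the matrix proteoglycan versican, rose by 3.96 and the GTPase gene Gm4951 by 3.81. Other probe sets of Ccnd2 gave differences from 0.40 to 3.81 and those of Vcan from 0.42 to 2.59. The other genes of the 15 that are reported stand with their lists above, and Usp18, Ifit1bl1 and Mx2 are among the antiviral genes.

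Among the largest falls outside the lists, Fbxo32, which encodes the ubiquitin ligase atrogin-1, went from 6.72 to 2.90 in the wild type and from 7.06 to 3.27 in the knockout, a fall of 3.81 (SE 0.24, adjusted p = 0.000445, limma), with the wild-type 2 h array below background. Chka, which encodes choline kinase alpha, went from 6.94 to 3.08 and from 6.65 to 3.58, a fall of 3.47, after 3.53 and 3.67 at 0 h, and its wild-type 2 h array was also below background. The sestrin gene Sesn1 fell by 3.24, Asph by 3.35, Sec14l1 by 3.22 and Plekhm1, a gene of lysosome fusion, by 3.17. Tcim went from 9.55 to 6.63 and from 11.17 to 8.17, a fall of 2.96. Tifab was below background on both 2 h arrays, and the bound of its fall was -2.50. Other probe sets of Asph (-0.48 to -0.06), Sec14l1 (-0.53), Plekhm1 (-0.73) and Dbp (-0.40) gave much smaller falls, and those of Chka ranged from -2.51 to -0.18. Of the 30 genes, 14 had another measurable probe set, and none of these moved in the opposite direction. This did not hold for all called genes named from the lists. Another probe set went the opposite way for Nfkb2 (-0.22), Tap1 (-0.10), Ndufaf4 (-0.38) and Spry2 (0.23). Those of Bcl2l11 reached 0.40 and those of Per3 0.26, against the falls given above. For other list genes they kept the sign but were much smaller, among them Inhba (0.25), Cxcl11 (0.31), Traf1 (0.29) and Bcl2 (-0.13 to -0.03).

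Few of the 2-fold changes were switches from or to background. Of the 294 genes that rose 3 were at or below background on both 1 h arrays (9330175E14Rik, Il33 and Slfn3), and of the 433 that fell 12 were so on both 2 h arrays. Over all tested genes 63 went from background at 1 h to above it at 2 h in both genotypes and 457 the other way. The background was higher on the 2 h arrays, and with the 95th percentile of the control probe sets in place of the highest the numbers were 47 and 152.

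Changed genes lay side by side on the chromosomes in several gene families. Of the 12474 tested genes placed by the RefSeq table (GRCm38.p6), 57 of the 294 that rose (19.4%) had another such gene as next tested neighbour, and 40 of the 433 that fell (9.24%). Of all placed genes 4.53% lay next to a gene that rose and 6.79% next to one that fell. Runs of 3 that rose were Ifit2, Ifit3 and Ifit1bl1 on chromosome 19, Cxcl9, Cxcl10 and Cxcl11 on chromosome 5, Gbp3, Gbp2b and Gbp2 on chromosome 3, Parp14, Dtx3l and Parp9 on chromosome 16, Slfn1, Slfn4 and Slfn3 on chromosome 11, Gm4951, Iigp1 and BC023105 on chromosome 18, and Ifi204, Mndal and Ifi202b on chromosome 1. The regulators of G-protein signalling Rgs2, Rgs1 and Rgs18 formed a run that fell on chromosome 1, and Gpr146, C130050O18Rik and Zfand2a another on chromosome 5. Members of such families are similar in sequence, and probes may not tell all of them apart.

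The arrays of 0 h and 4 h, which took no part in the difference between 2 h and 1 h, were compared for the same genes. Of the 294 that rose in the second hour 241 (82.0%) were at least 2-fold higher at 4 h than at 0 h in both genotypes and 1 was lower. Of the 433 that fell 288 (66.5%) were at least 2-fold lower and 8 were higher. Over all tested genes 6.65% were higher and 10.02% lower. With no replicate, this describes these arrays.

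The second hour was then compared between the genotypes. In an additive fit with a term for the difference in change (2 residual degrees of freedom), none of the 12540 genes passed (0%), the smallest adjusted p was 0.60, and 985 reached 0.05 unadjusted, against 627 expected with no difference. No other tool was run. The estimate reached 2-fold for 359 genes, with a median SE of 0.27. Absence of a call does not show that the genotypes responded alike. The estimate of the change was larger in size in the knockout for 120 of the 294 genes that rose and for 269 of the 433 that fell. Over all 12540 tested genes the signed change was higher in the knockout for 5258, so most changes were lower there. The counts for the 2-fold class are not read as a trait of its genes.

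Some genes of interest in Zc3h12a-/- cells had unequal estimates without passing. The summed levels of resident macrophage and lymphocyte markers given above were higher in the knockout arrays, the latter mainly through Ighm. Il6, an mRNA that Regnase-1 is known to degrade, read 7.97 and 10.06 at 1 h and 2 h in the wild type and 11.50 and 12.52 in the knockout. Its mean difference of 1.55 had an SE of 0.69 (adjusted p = 0.168, limma), and its genotype difference in change was -1.07 (SE 1.43). Il10, an anti-inflammatory cytokine, read 7.21 and 7.53 in the wild type and 4.37 and 6.90 in the knockout, a genotype difference of 2.22 (SE 1.10, adjusted p = 0.722). Lcn2, which encodes the iron-siderophore binder lipocalin-2, went from 4.07 to 8.10 in the wild type and read 10.84 and 10.91 in the knockout. Calcr, which encodes the calcitonin receptor, was at background through 2 h in the wild type and went from 2.91 to 5.19 in the knockout. Ccl22 went from 3.80 to 6.84 in the wild type and from 3.91 to 4.53 in the knockout. Of 14 tested mRNAs reported as Regnase-1 targets 2 rose, Il12b and Zc3h12a, and 1 fell, Nfkbid. Beside 7.71% and 14.6% of all genes tested, these counts are too small to set the list apart.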

How the data were processed

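The deposited table gave log2 values for 45101 probe sets, and the submitters' processing notes name RMA, which corrects background, equalises the arrays' distributions and summarises probes (version not given in the sources used here). A change in total mRNA would not show. Probe sets with 1 gene symbol in the platform annotation were used (34958, with 932 of several and 9211 unnamed), and a gene took its probe set of highest mean. Genes whose second-highest array reached 3.16, the median of all values, were kept. The 2 h minus 1 h difference came from limma 3.58.1 in R 4.3.3 on 8 arrays with genotype and time as terms, and the fits were tested on simulated data. With 1 array per group, spread means departure from additivity between genotypes, and the number of arrays limits precision. Promoters are from RefSeq (GRCm38.p6), and 34754 probe sets matched RefSeq genes.

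The members and lists were chosen with earlier results of these data known. Named genes were the 15 largest rises and falls of the 2-fold class by the smaller change of either genotype, the 3 members of smallest p per list, the 3 genes of smallest p each way for the genotype difference, and Zc3h12a, Il6, Tnf, Il1b, Il10, Il12b, Ifnb1, Nfkbia, Fos, Egr1 and Cxcl10. Other list members stand as examples chosen after their values were seen. Alternatives covered normalization, centring, filters, probe sets, variance model, samples and arrays left out. A gene among the largest rises is not reported here.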

Additional observations from a re-analysis of the deposited data

Results flagged for a closer look

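In 4 of the genes named by the rule the change from 1 h to 2 h had opposite signs in the genotypes and differed by at least 1 on the log2 scale. The difference in change, knockout minus wild type, was 1.70 for Smr2, 1.44 for Lhx9, 1.39 for Pced1a and -1.59 for Selenom. Each was tested by the genotype term of limma and none passed (adjusted p = 0.60 for each). Over all tested genes 191 met the same description.

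Probe sets without a gene name took no part in the comparisons. Of the 4015 that passed the same filter, 49 were at least 2-fold higher at 2 h in both genotypes and 40 at least 2-fold lower. The table gives no control level for them.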

How the results depend on the processing

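The difference was paired within genotype by the genotype block. The labels give no replicate number, so no pairing by replicate was made. Against 2794 genes that passed (967 higher, 1827 lower), 1262 passed without the genotype block (483 and 779), 1472 with the 4 arrays of 1 h and 2 h alone (553 and 919, 1 residual degree of freedom) and 207 when limma tested for more than 2-fold (108 and 99). Leaving out 1 array gave 1201 to 2613 genes, with 471 to 899 higher and 730 to 1714 lower. Centring on the housekeeping list gave 1887 higher and 1065 lower, and 274 at least 2-fold lower in both genotypes. That list's median level was lower at 2 h, while the median of its genes' changes was -0.01. Without regard to the test, at least 2-fold in both genotypes held for 739 genes (301 and 438), 1.5-fold for 1845 (665 and 1180) and 4-fold for 137 (83 and 54). Averaging all probe sets of a gene gave 421 at 2-fold, 216 of them lower. With the 95th percentile of the control probe sets as background, 152 genes in place of 457 went to background. The genotype difference in change had 0 calls under each alternative run, and it could not be fitted without an array of 1 h or 2 h. Between 448 (75th percentile filter) and 1367 genes (no filter) reached 0.05 unadjusted in these fits. Cyclic loess, no filter, the 75th percentile filter, single-transcript probe sets, trend and robust settings, and leaving out the 0 h or 4 h arrays moved the counts of genes passing by less than 1.5 times.

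Over the genes named by the rule, called values kept their side of the threshold in 1939 results under the alternatives and lost it in 245, and none changed sign. Uncalled values passed the threshold in 35 results. They changed sign in 19 results. With centring on the housekeeping list these were Cd2 (0.013), Cd3d (0.10), Siglecf (0.056), Batf3 (0.012), Pced1a (0.14), Tnf (0.017) and Nfkbia (0.075). Pced1a gave 0.066 with cyclic loess, and Snhg10 gave -0.22 with single-transcript probe sets. Leaving out 1 array gave Tpsb2 -0.16 to 0.39, Siglech -0.0024 to 0.40, Pced1a -0.54 to 0.41, Kit -0.18 to 0.37, Smr2 -0.072 to 1.07 and Ighm -0.67 to 0.055. The causes were not tested.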

Other observations

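The genes in this section lie outside the lists and were chosen after their values were seen. They are single genes and stand for no group. Il15ra, the receptor chain that presents interleukin 15, went from 3.64 to 8.01 in the wild type and from 4.73 to 7.84 in the knockout, a rise of 3.74 (SE 0.30, adjusted p = 0.000797, limma). The kinase gene Jak2 went from 8.92 to 11.31 and from 9.11 to 11.59, a rise of 2.44, and Stat5a, a factor activated by it, rose by 2.19. The receptor genes Met, Trem1 and Hcar2 rose by 2.74, 2.31 and 2.84, with Trem1 and Hcar2 below background on the wild-type 1 h array. Vcam1 went from 9.65 to 10.79 and from 9.29 to 10.34, after 4.48 and 4.41 at 0 h.

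Some changes had turned back by 4 h. Tslp, a cytokine gene, had wild-type values of 3.64, 6.98 and 4.85 at 1, 2 and 4 h and knockout values of 4.18, 7.19 and 4.70. Ahr, which encodes the aryl hydrocarbon receptor, read 6.72, 8.57 and 6.12 in the wild type and 7.42, 9.09 and 7.04 in the knockout. Jdp2, an AP-1 repressor gene, read 7.88, 10.75 and 8.26 in the wild type and 7.74, 9.60 and 7.53 in the knockout. Tifab read 5.99, 2.74 and 6.22 in the wild type and 5.48, 2.53 and 5.98 in the knockout, and its 2 h values lay below background. These genes were highest or lowest at 2 h among the 3 times in both genotypes.

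Single genes that fell are given in the same way. Pparg, the fatty acid receptor gene, went from 8.48 to 6.35 in the wild type and from 7.46 to 4.60 in the knockout, a fall of 2.49, and read 4.17 and 3.09 at 4 h. Its partner gene Rxra fell by 1.66 and Rxrb by 1.26. Foxo3 went from 10.72 to 8.26 and from 10.44 to 7.94, a fall of 2.48 (SE 0.12, adjusted p = 0.000257, limma), and Foxo4 fell by 1.19. Mnt and Mxd4, whose proteins oppose MYC, fell by 2.73 and 2.50 in the hour in which Myc fell by 3.11. Trib1 fell by 2.72, from 7.88 to 5.66 and from 7.38 to 4.15.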
